A study of Mus musculus with 14 samples.

Results

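The suppressors of cytokine signalling (SOCS) genes and Pias1, which encode inhibitors of cytokine receptor signalling, were examined in spleen T cells of mice with chronic myeloid leukaemia (CML). The 9 members, Cish, Socs1 to Socs7 and Pias1, were chosen by their symbols and not by a measured value, from the 24091 genes in the deposited count table. Earlier results of these data were known when they were chosen. T cells were sorted from the spleen of 8 chronic phase mice (CP CML, Mir142+/+BCR-ABL) and 6 blast crisis mice (BC CML, Mir142-/-BCR-ABL), with 200000 cells and 1 library for each mouse. All mice were C57Bl/6j, male or female and 6 to 10 weeks old, and all carried the SCLtTA/BCR-ABL transgenes, in which the stem cell leukaemia (SCL) gene's regulatory elements drive the tetracycline-controlled activator. BCR-ABL was induced in both groups by withdrawal of tetracycline for 3 weeks, and no other treatment was given. The groups therefore differed in Mir142, which was lost from every cell of the BC CML mice and not from T cells alone, and the mouse names of each group share a prefix of their own, so whatever the prefix marks and genotype cannot be told apart. Mice with neither transgene nor deletion were not analysed here, so BC CML is compared with CP CML and not with normal T cells.

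Cytokines such as IL-2, IL-6, IL-7 and the interferons act through receptors that carry Janus kinases (JAKs), which phosphorylate STAT transcription factors. SOCS proteins close this circuit as a feedback loop. STATs induce several of the SOCS genes, and the SOCS proteins then bind phosphorylated receptors or JAKs through an SH2 domain, and recruit a ubiquitin ligase through the SOCS box. CIS (encoded by Cish), SOCS1, SOCS2 and SOCS3 are the members best known for induction by cytokines, SOCS4 to SOCS7 are less tied to cytokine induction, and PIAS1 is a SUMO ligase that acts on activated STAT factors in the nucleus. In T cells, CIS limits signalling downstream of the T cell receptor and of IL-2, SOCS1 restrains interferon-γ and common γ chain cytokines, and SOCS3 restrains signalling through the IL-6 receptor subunit gp130.

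Mir142 encodes the microRNA missing in BC CML, and its mature arms are shown because their seeds define the matches sought in the SOCS transcripts. The seed, bases 2 to 8, is in capitals, and the sequences are those of RefSeq on GRCm38.p6 (the mm10 assembly).
miR-142-3p: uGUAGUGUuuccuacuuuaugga
miR-142-5p: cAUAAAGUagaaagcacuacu
Both arms lie on the plus strand of chromosome 11, miR-142-5p from 87756867 to 87756887 and miR-142-3p from 87756903 to 87756925. The Mir142 gene, as it was counted, had between 302 and 650 reads in each CP CML mouse and 0 reads in each BC CML mouse.

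In the longest 3′UTR of each gene in GENCODE vM21, 3 members (Socs5, Socs6 and Socs7) held a match to miR-142-3p and 5 (Socs1, Socs4, Socs6, Socs7 and Pias1) held a match to miR-142-5p. A match was any of ACACTACA, ACACTAC or CACTACA for miR-142-3p, and ACTTTATA, ACTTTAT or CTTTATA for miR-142-5p, on the strand of the transcript, and overlapping matches to the same arm were counted once. Among the 11509 tested genes with an annotated 3′UTR, 12.1% held a match to miR-142-3p, 23.5% held a match to miR-142-5p and 30.7% held either. These shares take no account of 3′UTR length, which ran from 1163 bases (Socs2) to 5184 bases (Socs7) over the members. No member held the longest form of 8 bases, and Cish, Socs2 and Socs3 held no match at all. The matches of 5 members are shown in 30 bases of the sense strand with the match in capitals, so that the site in each transcript can be set beside its change in level.
Socs1 with miR-142-5p, bases 390 to 396 of the 3′UTR (chr16:10783837-10783843, minus strand): ttaggtaataaACTTTATtatgaaagtttt
Socs4 with miR-142-5p, bases 3488 to 3494 (chr14:47294408-47294414, plus strand): gagagggaaccACTTTATtgctaatagctc
Socs5 with miR-142-3p, bases 1136 to 1142 (chr17:87136380-87136386, plus strand): ctagccatttgCACTACAgtagccaaatcc
Socs7 with miR-142-3p, bases 2008 to 2014 (chr11:97395366-97395372, plus strand): aaggaattggaACACTACtcagtgttgcat
Socs7 with miR-142-5p, bases 4694 to 4700 (chr11:97398052-97398058, plus strand): ttagtttccctACTTTATtctccctttttt
Pias1 with miR-142-5p, bases 2519 to 2525 (chr9:62879443-62879449, minus strand): agccacacaccACTTTATctcctgcattaa
Socs6 held 1 match to miR-142-3p (bases 3473 to 3479) and 2 to miR-142-5p (bases 1746 to 1752 and 2117 to 2123). The Socs4 match lies beyond the end of the gene as it was counted, since 671 of the 5182 bases of its 3′UTR were inside the counted gene. For Socs1, 424 of 1993 bases were counted, and its match was inside them.

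All 9 members were transcribed in the T cells of every mouse and all passed the filter on low counts. In BC CML, 6 members rose (Cish, Socs1, Socs2, Socs5, Socs6 and Socs7) and 3 fell (Socs3, Socs4 and Pias1) at an adjusted p below 0.05 in edgeR's quasi-likelihood test, adjusted over 12248 genes. Much of the transcriptome differed in this comparison: 65.2% of all tested genes passed the same threshold, 32.6% as higher and 32.7% as lower, so the 9 of 9 called, 6 higher and 3 lower, are read against that background. The median log2 fold change was 0.49 over the members and -0.01 over all tested genes, and the median of its size without sign was 0.65 over the members and 0.28 over all tested genes. The groups did not overlap for 6 members (Cish, Socs2, Socs5 and Socs6 above, Socs3 and Pias1 below), beside 36.9% of all tested genes. Cish alone changed by more than 1 on the log2 scale, as did 13% of all tested genes.

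Cish (chromosome 9, 107296659 to 107302784 of mm10, plus strand), the feedback inhibitor induced by STAT5, rose the most. Its normalized count, in CPM (the count scaled to library size), was lowest at 35.7, median 39.2 and highest at 49.7 in CP CML, and lowest at 102, median 158 and highest at 162 in BC CML. All 6 BC CML mice lay above all 8 CP CML mice. The means were 39.9 ± 4.36 CPM (SD, n = 8) and 147 ± 23.2 CPM (SD, n = 6), a 3.68-fold rise with a log2 fold change of 1.88 ± 0.10 (SE, the standard error, adjusted p = 1.03e-10 by edgeR). The size of the Cish change was larger than that of 95.8% of tested genes. In bulk samples, fewer cells of a type and less RNA per cell cannot be told apart, here and for each gene that follows.

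Socs2 (chromosome 10, 95411490 to 95416857, minus strand) encodes the inhibitor of growth hormone signalling, which STAT5 also induces. Its values were 8.98, 12.2 and 14.3 CPM (lowest, median, highest) in CP CML and 14.7, 20.5 and 25.3 CPM in BC CML. The groups did not overlap, but the lowest BC CML mouse was close to the highest CP CML mouse. The log2 fold change was 0.84 ± 0.12 (SE, adjusted p = 1.36e-05 by edgeR), a 1.79-fold rise from 11.7 ± 1.98 to 21.0 ± 3.80 CPM (SD, n = 8 and 6). Socs2 was the least abundant member by CPM, with between 143 and 281 reads for each CP CML mouse.

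Socs1 (chromosome 16, 10783809 to 10785536, minus strand), whose product blocks JAK activity directly, was lowest at 18.2, median 20.8 and highest at 29.4 CPM in CP CML. In BC CML it was lowest at 25.0, median 35.2 and highest at 40.1 CPM. The groups overlapped through 1 mouse on each side, CP CML replicate 3 at 29.4 CPM and BC CML replicate 6 at 25.0 CPM. The log2 fold change was 0.65 ± 0.11 (SE, adjusted p = 0.0001 by edgeR), a 1.57-fold rise from 21.7 ± 3.63 to 34.1 ± 5.66 CPM. Its transcript holds the miR-142-5p match shown above, as do those of 23.5% of tested genes.

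Socs3 (chromosome 11, 117966087 to 117969366, minus strand), which STAT3 induces and whose product binds gp130, moved the other way. It was lowest at 388, median 447 and highest at 524 CPM in CP CML, and lowest at 203, median 247 and highest at 348 CPM in BC CML. All 6 BC CML mice were below all 8 CP CML mice, and the BC CML mice were more spread out, with a coefficient of variation of 20.9% against 9.31%. Socs3 fell from 449.5 ± 41.8 to 266 ± 55.6 CPM (SD, n = 8 and 6), a log2 fold change of -0.76 ± 0.11 (SE, adjusted p = 1.81e-05 by edgeR) and a 1.69-fold higher level in CP CML. Its 3′UTR held no match to either arm of miR-142.

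The plot of normalized counts by mouse shows these 4 members beside the other 5.

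**Figure D1:**
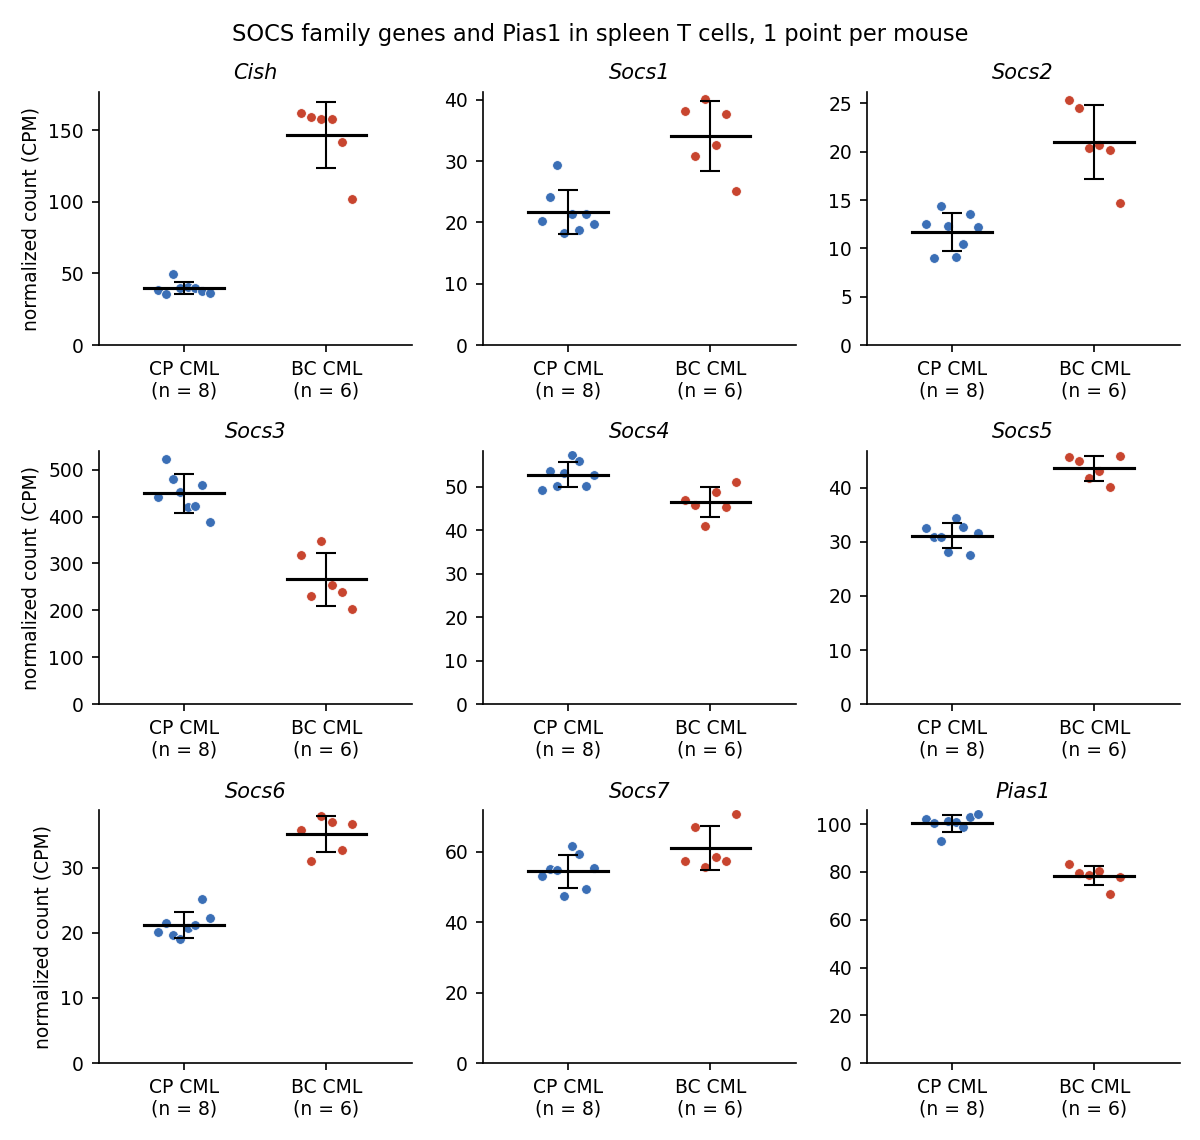
Normalized counts (CPM, vertical axes from 0, a separate scale for each gene) of the 9 members in 8 CP CML mice (blue) and 6 BC CML mice (red), with 1 point per mouse in replicate order from left to right; black bars are the mean and SD. Cish lies between 35.7 and 49.7 CPM in CP CML and between 102 and 162 CPM in BC CML, Socs3 is lower in every BC CML mouse, and the groups overlap for Socs1, Socs4 and Socs7.

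The promoters of the pair that changed most in opposite directions, Cish and Socs3, are given because STAT factors are known to act at both genes. Each run is the 250 bases before the annotated start in RefSeq (GRCm38.p6), written on the sense strand, with any TTCNNNGAA, the core of a STAT site, in capitals.
Cish, chr9:107296409-107296658, plus strand: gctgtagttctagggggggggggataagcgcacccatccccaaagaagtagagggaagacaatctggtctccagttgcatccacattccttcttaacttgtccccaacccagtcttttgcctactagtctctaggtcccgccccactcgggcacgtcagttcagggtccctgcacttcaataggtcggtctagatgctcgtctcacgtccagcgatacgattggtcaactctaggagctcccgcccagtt
Socs3, chr11:117969367-117969616, minus strand: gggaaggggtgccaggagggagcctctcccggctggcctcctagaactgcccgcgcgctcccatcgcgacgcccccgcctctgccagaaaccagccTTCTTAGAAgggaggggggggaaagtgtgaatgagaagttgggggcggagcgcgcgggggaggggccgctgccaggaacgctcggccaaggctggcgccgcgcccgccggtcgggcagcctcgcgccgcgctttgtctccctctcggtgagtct
Socs3 held 1 match, TTCTTAGAA, which begins 154 bases before the start, and the Cish window held none. The motif reads the same on both strands, and 7.02% of the 32851 promoters in the RefSeq table held it in this window. The spacing with 1 base more, TTCNNNNGAA, was in 5.85% of promoters and in neither of these. The table also held Socs1, Socs4 and Pias1, none of which had either motif, so 5 members were matched, and a match here is a description and not a site of binding. Bases outside these 250 were not searched, so a window with no match does not show that the gene lacks a STAT site.

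Socs6 (chromosome 18, 88688067 to 88894207, minus strand), whose product acts on receptor tyrosine kinases such as KIT, rose from 19.0, 20.9 and 25.2 CPM (lowest, median, highest) in CP CML to 31.0, 36.2 and 37.9 CPM in BC CML. The groups did not overlap, the lowest BC CML mouse being well above the highest CP CML mouse. The log2 fold change was 0.73 ± 0.06 (SE, adjusted p = 2.28e-08 by edgeR), a 1.66-fold rise from 21.2 ± 1.94 to 35.2 ± 2.70 CPM (SD, n = 8 and 6). Socs6 is the member with the most matches to miR-142, 3 in all.

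Socs5 (chromosome 17, 87107679 to 87137588, plus strand), whose product has been linked to IL-4 and EGF receptor signalling, was at 27.6, 31.3 and 34.3 CPM in CP CML and at 40.1, 44.0 and 45.8 CPM in BC CML. The groups were apart and each was tight, with coefficients of variation of 7.38% and 5.30%. The rise was 1.40-fold, a log2 fold change of 0.49 ± 0.05 (SE, adjusted p = 3.37e-07 by edgeR).

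Socs7 (chromosome 11, 97362551 to 97398542, plus strand), an adaptor that binds signalling and cytoskeletal proteins, was at 47.5, 55.0 and 61.6 CPM in CP CML and 55.7, 58.0 and 70.8 CPM in BC CML. The groups overlapped over much of their range. Its longest 3′UTR holds a match to each arm of miR-142. The log2 fold change was 0.17 ± 0.07 (SE, adjusted p = 0.0341 by edgeR). This call was lost without CP CML replicate 1 (0.16, adjusted p = 0.0556), without CP CML replicate 4 (0.14, adjusted p = 0.0686), without CP CML replicate 7 (0.15, adjusted p = 0.064), without BC CML replicate 2 (0.14, adjusted p = 0.087) and without BC CML replicate 6 (0.12, adjusted p = 0.106). It was also lost with the mean level of neutrophil and monocyte markers in each mouse as a covariate, where the log2 fold change was 0.0159 (adjusted p = 0.918). BC CML replicate 6 had the highest Socs7 and BC CML replicate 2 the second highest.

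Socs4 (chromosome 14, 47277143 to 47291591, plus strand), the closest relative of Socs5, was at 49.2, 52.8 and 57.4 CPM in CP CML and 40.9, 46.3 and 51.1 CPM in BC CML. The groups overlapped through the highest BC CML mouse, replicate 6. Socs4 fell from 52.7 ± 2.87 to 46.4 ± 3.44 CPM, a log2 fold change of -0.18 ± 0.05 (SE, adjusted p = 0.00419 by edgeR).

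Pias1 (chromosome 9, 62878487 to 62980879, minus strand), the SUMO ligase, was the most even of the members, with a coefficient of variation of 3.54% in CP CML and 5.23% in BC CML. It was at 92.7, 101.1 and 104 CPM in CP CML and at 70.9, 79.1 and 83.2 CPM in BC CML. The highest BC CML value was below the lowest CP CML value, and Pias1 fell by 0.36 on the log2 scale (SE 0.04, adjusted p = 2.97e-07 by edgeR). Of the other PIAS genes, Pias3, named for its action on STAT3, rose from 20.8 ± 1.25 to 30.8 ± 2.23 CPM (log2 fold change 0.57, adjusted p = 7.93e-08 by edgeR) with no overlap between groups. Pias2 had a log2 fold change of 0.14 (adjusted p = 0.0133 by edgeR) with overlap, and lost its call with the neutrophil and monocyte covariate (0.0546, adjusted p = 0.571). Pias4 was not called.

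**Figure D2:**
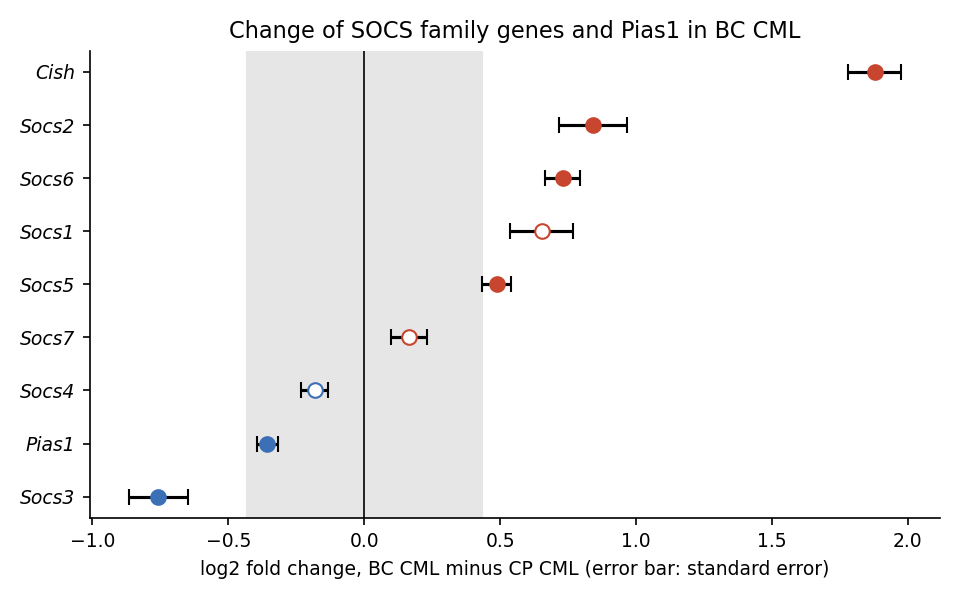
Log2 fold change (horizontal axis, BC CML minus CP CML) of the 9 members with its standard error; red points rose and blue points fell, and open points mark members whose groups overlap. The grey band spans the median size of the change among all called genes, 0.43 in each direction: Cish, Socs2, Socs6, Socs1, Socs5 and Socs3 lie outside it, and Socs7, Socs4 and Pias1 inside.

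Among the 6 members with a match to miR-142, 4 rose (Socs1, Socs5, Socs6 and Socs7) and 2 fell (Socs4 and Pias1). Among the 3 members with none, 2 rose (Cish and Socs2) and 1 fell (Socs3). The largest rise and the largest fall were thus both in transcripts without a match in the longest annotated 3′UTR, and the counts are too few for a comparison of the kinds.

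Levels of different genes were compared per length, as CPM divided by the gene length in kilobases (RPKM). In CP CML, Socs3 stood far above the rest at 165 ± 15.4 RPKM (SD, n = 8), followed by Socs4 at 24.5, Pias1 at 18.5, Socs1 at 16.2, Cish at 13.2, Socs7 at 7.79, Socs5 at 7.07, Socs6 at 4.52 and Socs2 at 4.33. In this order the ranges of Pias1 and Socs1, of Socs1 and Cish, of Socs7 and Socs5, and of Socs6 and Socs2 overlapped, and the other neighbours were apart. Within each CP CML mouse, Socs1 was still above Cish in all 8.

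In BC CML, Socs3 stayed first at 97.7 ± 20.4 RPKM (SD, n = 6) and Cish, the fifth in CP CML, stood next at 48.7 ± 7.70. Socs1 followed at 25.5, Socs4 at 21.6, Pias1 at 14.4, Socs5 at 9.91, Socs7 at 8.73, Socs2 at 7.79 and Socs6 at 7.49. Cish was apart from its neighbours on both sides. The ranges overlapped between Socs1 and Socs4, and between each neighbouring pair from Socs5 down.

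**Figure D3:**
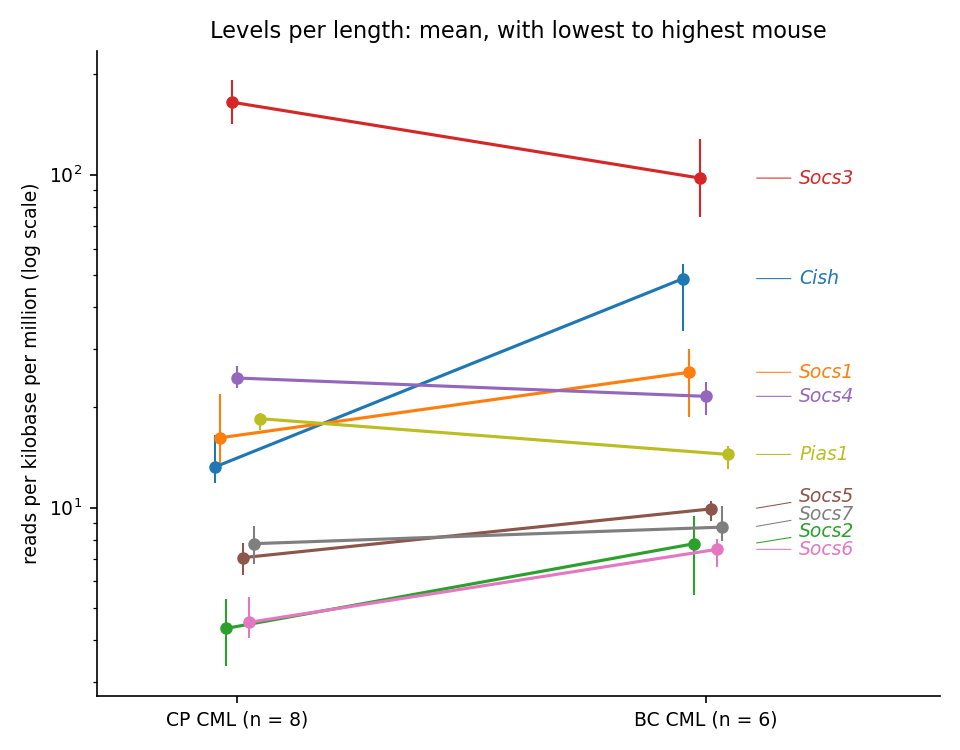
Mean level per length (RPKM, log scale) of each member in CP CML (left, n = 8) and BC CML (right, n = 6), joined by a line, with vertical bars from the lowest to the highest mouse. Cish moves from the fifth place (13.2 RPKM) to the second (48.7 RPKM), while Socs3 falls from 165 to 97.7 RPKM and stays first.

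The summed level of the 8 SOCS genes, Pias1 left out, overlapped between the groups, at 218 to 270 RPKM in CP CML and 185 to 263 RPKM in BC CML. Its make-up did not overlap. Cish was 4.39% to 6.28% of the sum in CP CML (median 5.55%) and 18.3% to 24.3% in BC CML (median 21.4%). Socs3 was 65.3% to 71.2% in CP CML and 39.0% to 48.7% in BC CML. Per length, Socs3 was between 10.7 and 16.2 times Cish in the CP CML mice and between 1.61 and 2.44 times Cish in the BC CML mice. These shares are descriptions of the changes already tested gene by gene.

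**Figure D4:**
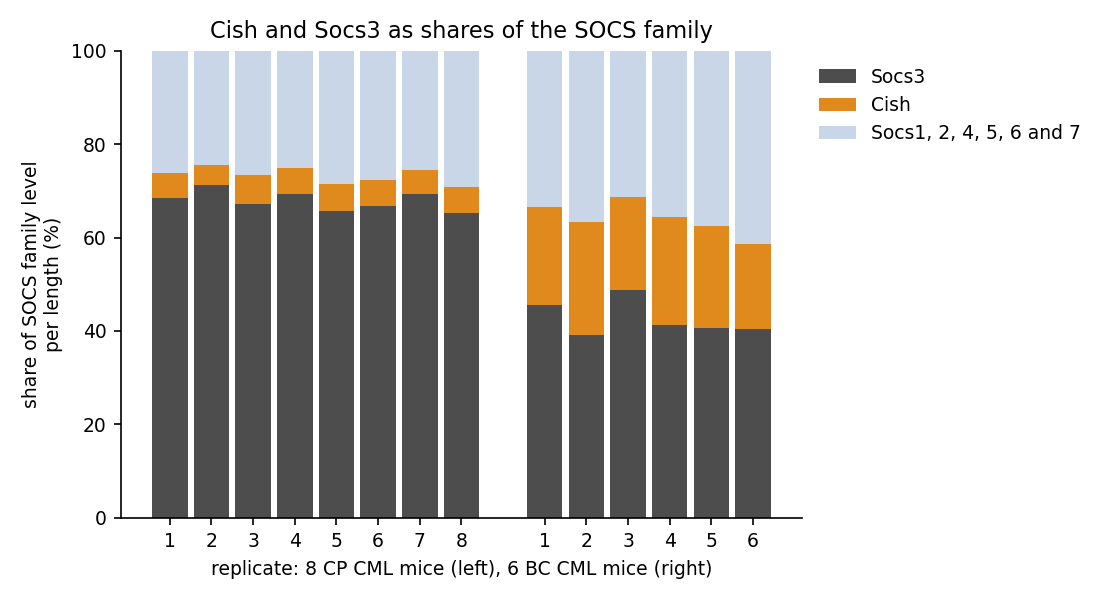
Share (%) of the summed level per length of the 8 SOCS genes that Socs3 (dark grey), Cish (orange) and the other 6 (light blue) take in each mouse, CP CML on the left and BC CML on the right, with bars numbered by replicate. Cish takes at most 6.28% in a CP CML mouse and at least 18.3% in a BC CML mouse.

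The order of the mice within a group differed between members. BC CML replicate 6 had the lowest Cish, Socs1, Socs2 and Socs3 of its group, and the highest Socs4, Socs5 and Socs7. CP CML replicate 3 had the highest Cish, Socs1 and Socs2 of its group. Without BC CML replicate 6, the log2 fold change of Cish was 1.96, of Socs1 0.73, of Socs2 0.93 and of Socs3 -0.69, and each remained past the threshold. These mice were singled out after their values were seen.

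After the mean of each group was subtracted, the tested genes whose log2 CPM followed a member most closely over the 14 mice were as follows, among 9071 genes with a mean log2 CPM of at least 3. Cish was followed by Pigq (Pearson r 0.90), Mapkapk3 (0.89) and Atp2b4 (0.88). By rank (Spearman), these 3 had lower values of 0.80, 0.77 and 0.77. Socs1 was followed by Syt11 (0.86), Adprhl2 (0.84) and Gadd45g (0.83), and Socs2 by Snx14 (0.91), Clstn1 (0.85) and Mettl7a1 (0.81). Socs3 was followed by Rragd (0.90), Cox18 (0.89) and Rrp1b (0.87). The mice share library and depth between the genes of a pair, and such likeness is a description only. These genes were also picked as the highest of 9071, and picking the highest raises the values.

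The genes around the SOCS loop were taken from lists of 109 genes of the JAK and STAT pathway and of SOCS box proteins and their partners, of which 93 were tested. In BC CML 45 rose, 21 fell and 27 were not called, and their median log2 fold change was 0.17. Over all tested genes 32.6% were called higher, 32.7% were called lower and the median was -0.01. The counts of each list below are read against these shares. Among the partners that join the SOCS box to a ubiquitin ligase, 5 of 6 rose and none fell. Cul5, the cullin scaffold used by SOCS proteins, rose by 0.32 on the log2 scale from 82.1 ± 3.70 to 103 ± 6.09 CPM (adjusted p = 2.71e-06 by edgeR), Cul2 by 0.28 and Eloc, which encodes elongin C, by 0.23. These changes were small in size, but the groups did not overlap for any of the 3. Among other SOCS box genes, those with a SPRY domain, Spsb2 rose (0.58) and Spsb3 fell (-0.24) of 3 tested, and the Spsb2 call was lost with the neutrophil and monocyte covariate (0.36, adjusted p = 0.378).

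The kinases changed little, and the STAT genes moved apart. Jak1, Jak2 and Tyk2 were not called (log2 fold changes -0.01, 0.06 and 0.02), and Jak3, which carries the common γ chain signal, was called lower at -0.20 (adjusted p = 0.0331 by edgeR). Stat4, which acts downstream of IL-12, rose from 214 ± 12.1 to 296 ± 12.5 CPM (log2 fold change 0.47, adjusted p = 1.84e-08 by edgeR), and the groups did not overlap.

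Stat5b fell from 261 ± 12.3 to 189 ± 12.1 CPM (log2 fold change -0.47, adjusted p = 4.3e-08 by edgeR) with no overlap between groups, and its twin Stat5a was not called (0.04). Stat5a and Stat5b are near-identical in part, and how reads that fit both were counted is not given in the sources used here. Stat2 was called lower at -0.30, Stat6 at -0.15 and Stat3, the activator of Socs3, at -0.10 (adjusted p = 0.0476 by edgeR). The calls of Jak3, Stat3 and Stat6 were near the threshold. Jak3 lost its call without any 1 of CP CML replicates 3 to 6 or BC CML replicates 4 to 6, and Stat6 without CP CML replicate 3, 5 or 6 or BC CML replicates 3 to 6, so that each kept it in 7 of 14 such fits. Stat3 kept its call in 4 of 14, those without CP CML replicate 4, 7 or 8 or BC CML replicate 1, with values from -0.12 to -0.08 over all 14.

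Receptors that feed this pathway rose more often than they fell, with 16 higher and 5 lower of 27 tested. Of all tested genes, 32.6% were higher and 32.7% lower. Il12rb2, a chain of the IL-12 receptor, rose from 16.2 ± 2.16 to 88.8 ± 12.2 CPM (log2 fold change 2.46, adjusted p = 1.17e-12 by edgeR). Csf3r, the receptor of granulocyte colony-stimulating factor, had a log2 fold change of 2.98 (means of 2.35 and 18.3 CPM). Lifr, the leukaemia inhibitory factor receptor, had one of 2.33 (means of 4.92 and 24.6 CPM). Which cells the reads of the receptors came from was not tested. Falls were led by Il6ra, the IL-6 receptor α chain, from 202 ± 14.4 to 68.9 ± 10.4 CPM (log2 fold change -1.55, adjusted p = 5e-11 by edgeR). Il7r, also among the naive markers below, fell from 1107 ± 171 to 552 ± 138 CPM (adjusted p = 3.01e-05 by edgeR) and Il3ra by 0.47. The groups did not overlap for any of these 6 receptors.

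Of the cytokines, 10 of 20 were tested, 4 were higher and 2 lower. Among those with at least 1 log2 CPM on average, Lif rose by 0.83 and Il21, a T cell cytokine that uses STAT3, rose by 0.81, and the groups overlapped for both. The Il21 change was 0.39 without BC CML replicate 5 and was still called, and its call was lost with the neutrophil and monocyte covariate (0.62, adjusted p = 0.278). Of 11 other inhibitors of the pathway, 5 rose and 2 fell: Ptpn6, the phosphatase SHP-1, rose from 257 ± 36.8 to 492 ± 49.6 CPM (log2 fold change 0.94), Sh2b3, the adaptor LNK, rose by 0.92 and Ptprc, the phosphatase CD45, by 0.43. The ubiquitin ligases Cblb and Cbl fell by 0.27 and 0.19, and both calls were lost with that covariate (adjusted p = 0.0981 and 0.0741). Their log2 fold changes were then -0.30 and -0.20, no smaller in size, with wider standard errors of 0.14 and 0.09.

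Genes that STAT factors commonly induce were mixed, with 10 higher, 6 lower and 8 not called of 24. The share called was near that of all tested genes, 65.2%. Gzmb, which encodes granzyme B, had a log2 fold change of 2.46, Tbx21, the TH1 regulator T-bet, of 1.12, and Irf8 rose 2.30-fold. Gzmb and Tbx21 are also among the effector and memory markers below. Prdm1 fell by 0.88, Pim1 by 0.72 and Batf by 0.61. Beside Cish and Socs2, STAT5 targets did not move one way. Bcl2l1, which encodes the survival factor BCL-XL, rose from 19.0 to 40.3 CPM on average (log2 fold change 1.08, adjusted p = 3.18e-10 by edgeR) with no overlap between groups, and Pim2 rose by 0.36 (adjusted p = 0.00824 by edgeR) with overlap and lost its call with the neutrophil and monocyte covariate (0.41, adjusted p = 0.069). Both were named after their values were seen. Pim1 fell from 272 ± 22.5 to 165 ± 34.9 CPM (adjusted p = 5.58e-05 by edgeR) and Ccnd2 had 765 ± 136 and 762 ± 81.2 CPM, with no call. Bcl2 had a log2 fold change of 0.38 that was not called (adjusted p = 0.0651 by edgeR), and was called without BC CML replicate 5 (adjusted p = 0.0409) or BC CML replicate 6 (adjusted p = 0.0344).

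**Figure D5:**
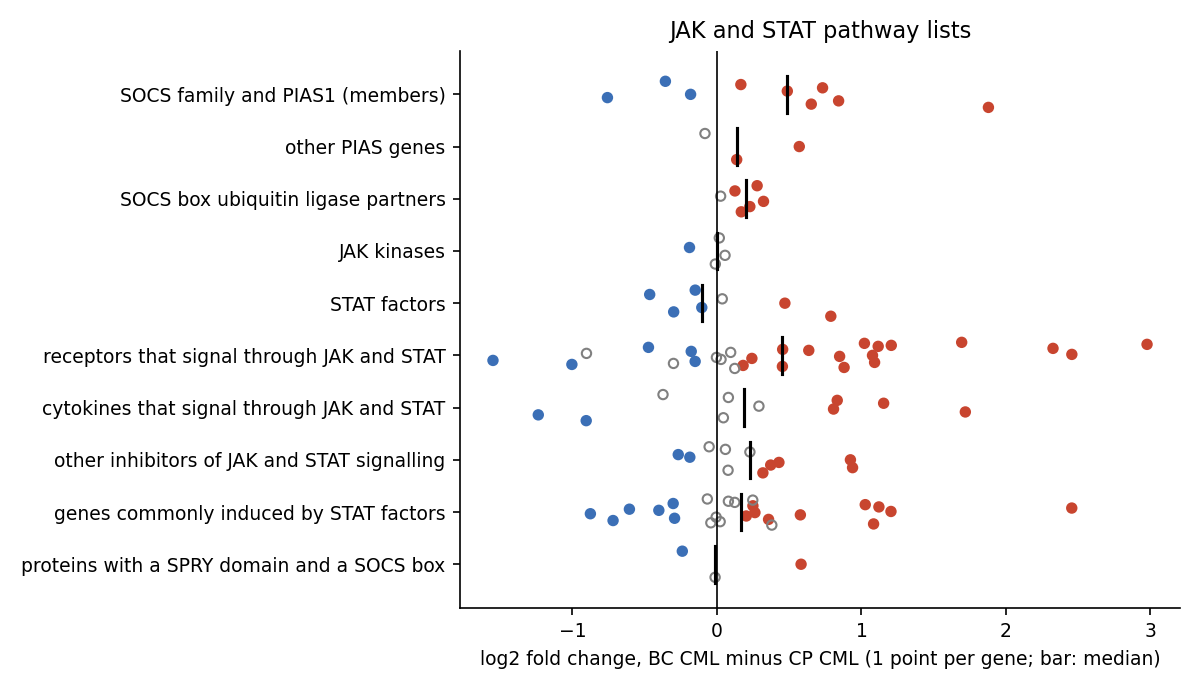
Log2 fold change (BC CML minus CP CML) of each tested gene in the members' list and in 9 lists of the JAK and STAT pathway and of SOCS box proteins and their partners. Filled red and blue points passed the adjusted threshold as higher and lower, open points did not, and the black bar is the median of each list. Receptors spread widest, from -1.55 (Il6ra) to 2.98 (Csf3r), while the kinases lie between -0.20 and 0.06.

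The cells carried the defining genes of T cells in every mouse, such as Cd3e at 363 to 434 CPM in CP CML and 385 to 430 CPM in BC CML, and the summed CPM of 12 T cell markers was 4421 to 5063 and 5463 to 5760. Of these 12, 6 rose and 2 fell. Cd8a rose by 0.87 and Cd4 fell by 0.73 on the log2 scale, while Cd8b1, which encodes the other CD8 chain, was not called (0.07). Markers of T cell subsets differed: all 8 naive markers fell (summed CPM 4919 to 6275 in CP CML, 2702 to 3875 in BC CML). All 10 effector and memory markers rose (921 to 1146 and 2040 to 2491). Markers of other cells also moved with the groups. The neutrophil and monocyte markers, of which 11 of 12 rose, summed to 164 to 727 CPM in CP CML and 1160 to 2264 CPM in BC CML, the highest being BC CML replicate 6. Within this sum, Ly6c2 alone had 74.8 to 98.0 CPM in CP CML and 342 to 474 CPM in BC CML. Which cells it came from was not tested. The NK cell markers, of which 6 of 7 rose and Klra4 was at 0 in all mice, summed to 77.6 to 106 and 223 to 451 CPM. The B cell markers, of which 5 of 7 in the table rose, summed to 58.9 to 174 and 99.8 to 491 CPM. The basophil and mast cell markers, of which 6 of 8 were tested and 2 rose (Kit and Cpa3), summed to 5.57 to 13.8 and 19.7 to 53.8 CPM. Kit alone had 2.96 to 5.16 CPM in CP CML and 16.5 to 34.0 CPM in BC CML, and Mcpt8, Prss34, Gata2 and Cyp11a1 were not called. The erythroid markers summed to 18.5 to 74.7 and 51.0 to 87.1 CPM (3 rose), those of regulatory T cells to 502 to 567 and 492 to 664 CPM (3 rose, and Foxp3 and Ctla4 fell), and none of 8 proliferation markers was called.

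With the neutrophil and monocyte score of each mouse as a covariate, 8 of the 9 members remained past the threshold in the same direction. Cish then changed by 2.15 ± 0.14 (log2, SE, adjusted p = 8.95e-09 by edgeR), Socs3 of -0.57 (adjusted p = 0.00959) and Socs6 of 0.62 (adjusted p = 0.000122). Socs7 had 0.02 (adjusted p = 0.918) and was no longer called. Among the receptors, Csf3r had 1.64 and Lifr 1.38 under this covariate, and Il3ra lost its call (adjusted p = 0.299). The calls of Jak3, Stat2, Stat3 and Stat6 were lost as well (adjusted p = 0.956, 0.2, 0.241 and 0.362), as were those of Pias2, Spsb2, Il21, Cbl, Cblb and Pim2 given above. The log2 fold changes of Jak3, Stat2, Stat3 and Stat6 were then 0.0093, -0.20, -0.11 and -0.12. The neutrophil and monocyte marker sums did not overlap between the groups, so the score and the genotype were largely confounded. Standard errors widened, from 0.10 to 0.14 for Cish and from 0.11 to 0.19 for Socs1. A call kept or lost in this fit therefore cannot tell RNA of these cells and genotype apart. The part of the naive, effector, NK cell and B cell markers in the members' changes was not tested.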

How the data were processed

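RNA of spleen T cells was sequenced as paired reads of 101 bases. Per the submitters' processing notes and the study's methods, the authors trimmed reads with Trimmomatic and FASTP, aligned them to mm10 with STAR 2.6.0 and counted them per gene with HTSeq 0.11.1; strand setting and counting annotation are not given in the sources used here. The authors deposited raw read counts of 24091 genes, with gene position and length, without normalization. Totals were 15703702 to 19914531 reads per mouse in CP CML and 16145537 to 19399720 in BC CML. Beside Mir5098, whose listed span covers much of chromosome 11 and which had at most 11 reads, no gene of the table overlapped a member.

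Counts were analysed in R 4.3.3 with edgeR 4.0.16: filterByExpr (12248 genes kept), TMM normalization, robust quasi-likelihood fit of group, and Benjamini-Hochberg adjustment over all tested genes, threshold 0.05, two-sided. CPM used TMM library sizes, and RPKM the deposited gene length; log2 CPM used a prior count of 2. Standard errors were derived from the F statistic. On simulated counts for this comparison (12181 genes, 199 with a log2 change of 1) the test recovered 179 (89.9%) with 14 other calls. Far fewer genes changed there than in the data, where 65.2% were called. The simulation therefore does not test scaling or error control when most genes differ. The comparison was repeated with each mouse left out, without a filter or with more than 1 CPM required in 6 samples, with DESeq2 1.42.0 or the likelihood ratio test, with RLE factors or no factors, with a block for replicate number, and with a neutrophil and monocyte score as covariate.

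Members and lists were chosen with earlier results of these data known. Named genes were all members and Mir142; in each list the 3 largest called rises and falls with mean log2 CPM of at least 1; every Jak and Stat gene but 1, which is not reported here, Pim1, Bcl2 and Ccnd2; the 3 genes most like each of Cish, Socs1, Socs2 and Socs3; and marker genes that moved with a result. Bcl2l1 and Pim2 were named outside this rule.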

Additional observations from a re-analysis of the deposited data

Results flagged for a closer look

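A sample was singled out where its gap to the nearest other sample of its group, divided by the range of the group, passed Dixon's 95% critical value. Of 44 groups of values examined, 4 held such a sample, where chance gives about 1 in 20 (2.2). Cish in BC CML replicate 6 was 101.8 CPM, and the next lowest BC CML mouse had 141.6 CPM. Cish in CP CML replicate 3 was 49.7 CPM, and the next highest CP CML mouse had 40.4 CPM. Both mice lay toward the other group, which narrowed the difference in Cish. The summed CPM of the proliferation markers was 807 in BC CML replicate 5, against 572 in the next highest mouse of its group. The total was 16145537 reads in BC CML replicate 2, against 18319039 in the next lowest mouse of its group.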

How the results depend on the processing

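Under 8 alternative fits and 14 fits that each left out 1 mouse, 8 of the 9 members kept their direction and their side of the threshold. Their log2 fold changes over the 8 alternatives were 1.84 to 2.15 for Cish, 0.63 to 0.82 for Socs1, 0.83 to 1.07 for Socs2, -0.80 to -0.57 for Socs3, -0.23 to -0.18 for Socs4, 0.41 to 0.49 for Socs5, 0.62 to 0.79 for Socs6 and -0.38 to -0.34 for Pias1. Socs7 lost its call with the replicate block (0.15, adjusted p = 0.0623) and with the neutrophil and monocyte covariate (0.0159, adjusted p = 0.918), and ranged from 0.12 to 0.19 with 1 mouse left out. The replicate numbers do not pair the mice (correlation of same-numbered mice from -0.27 to 0.36), and with the block 7280 genes were called, against 7986 without. The pathway genes called lower were 21, and 11 with the covariate (33 against 45 higher), under which 5367 genes were called in all. The cause was not tested. Among genes that were never called, Tyk2 changed sign with the replicate block (-0.0212) and with 1 mouse left out (-0.0295 to 0.0394), Jak1 with 1 mouse left out (-0.0283 to 0.0119), Jak2 with the covariate (-0.0734), and Ccnd2 with DESeq2 (0.00045), RLE factors (0.00040), the stricter filter (0.0012), the covariate (0.0255) and 1 mouse left out (-0.0588 to 0.0658). Jak3, called lower, was 0.0093 with the covariate and not called. Bcl2 was called with the likelihood ratio test (adjusted p = 0.041) and with the replicate block (adjusted p = 0.0164). Stat3 lost its call with the likelihood ratio test, RLE factors, no filter, the stricter filter and the covariate. The median of all genes moved by 0.0057 with RLE factors and by -0.0100 with library size alone. The largest move of any fit, 0.0345, came without the filter, where more genes were tested. Levels per length and the 3′UTR counts of members held under library size alone and under any annotated 3′UTR. Reads without molecular identifiers and 3′UTRs counted only in part limit the precision, and mature miR-142 was not measured.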
